A study of Cuscuta campestris with 8 samples.

Results

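The genes described here are those that were both abundant and enriched in the haustorial region of the dodder Cuscuta campestris, a parasitic plant, when it was grown without a living host. A gene was chosen when its mean over all 8 libraries reached 100 CPM (counts scaled to a library of 1000000), its haustorial mean was at least 4 times its shoot mean after 0.1 CPM had been added to each, and every haustorial library lay above every shoot library. The rule found 116 genes among the 45825 in the files, of which 32855 had passed the filter on low counts. All 116 passed that filter. Because the rule used the levels in both tissues, the tissue difference of these genes is given as a description. A count of test calls is printed beside the share of all genes called, and nothing is read from it.

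Dodders are leafless and rootless stem parasites. A coiling stem forms a holdfast that sticks to the surface, and from it haustoria grow into the host, connect to its vascular tissue and draw water, sugars and minerals. Haustoria of parasitic plants are known for secreted enzymes that loosen cell walls and for transport proteins.

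Both groups came from the same in vitro culture of C. campestris that had previously been kept on Beta vulgaris (beet), and differ in the organ sampled. Vegetative shoot tips of 3 cm were surface-sterilized and fixed to an artificial host in liquid MMS medium with 1-naphthaleneacetic acid, a synthetic auxin, at 3 mg per litre and 6-benzylaminopurine, a cytokinin, at 1 mg per litre. They had 2.5 days of far-red enriched light, then 12.5 days of full-spectrum light, and were sampled at 15 days. The haustorial region was stem carrying healthy holdfasts, cut free of shoots and lateral meristems, and touched the medium through its haustoria alone, while the shoot samples were new shoots with the 5 mm nearest to the haustorial region removed. Each of the 4 libraries of a tissue is polyadenylated RNA of 3 to 4 pooled plants, so single plants were not measured. The haustorial region holds stem as well as haustoria, and in such bulk samples a larger share of a cell type cannot be told apart from more RNA per cell.

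Libraries held between 22334600 and 34247925 counts, and the lowest count of any of the 116 genes in any haustorial library was 2612. The files give no gene names or products, and a table of 45474 annotated genes of the assembly GCA_900332095.2 matched 0 of the identifiers. The proteins, genome positions and sequences of the 116 genes are therefore not given, and markers of haustorial or shoot cells could not be checked. Apart from 2 identifiers, genes are called by their rank from 1 to 116 in haustorial mean CPM. Gene lengths were not at hand, so this rank orders the number of reads and not the number of transcripts.

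The rule's thresholds were not equally active. Of the 32855 genes, 1558 averaged 100 CPM or more, and 116 of these (7.45%) also reached the 4-fold ratio. The condition of no overlap removed 0 of them. Just inside the level threshold were genes with means of 100.1, 100.2 and 100.7 CPM, and just outside it were genes with 99.0, 98.0 and 96.5 CPM. At the ratio threshold, the nearest genes inside had ratios of 4.01, 4.02 and 4.03, and the nearest outside had 3.998, 3.97 and 3.94. The limits thus cut through a continuous range of genes. The genes beyond them in mean level were many more: 870 genes with a mean under 100 CPM also met the ratio and the no-overlap conditions.

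Haustorial means of the 116 genes ran from 172 to 41041 CPM with a median of 386 CPM. Their shoot means ran from 0 to 1532 CPM with a median of 43.1 CPM. The ratio of the means had a median of 7.87, with quartiles of 5.55 and 15.5. On the log2 scale of the edgeR fit, the median fold change was 2.98 against -0.02 over all genes tested, and the standard errors (SE) ran from 0.08 to 0.61 with a median of 0.17. Putting the gene without shoot counts at its lower bound leaves that median as it is. By the edgeR quasi-likelihood test, at a Benjamini-Hochberg adjusted p under 0.05, all 116 were called as haustorially enriched, against 31.2% of all genes tested. All 116 showed no overlap between tissues with the haustorial libraries above, against 28.6% of all genes. Both counts follow from the rule.

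**Figure D1:**
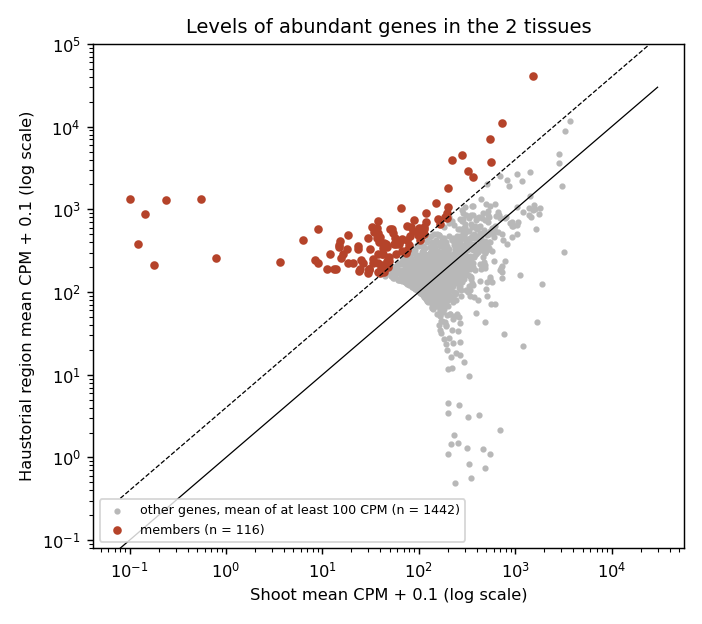
Mean CPM in the haustorial region against mean CPM in the shoot for genes averaging 100 CPM or more, each with 0.1 added, on log axes. Red points are the 116 chosen genes and grey points the other 1442 genes, the solid line marks equal levels and the dashed line a 4-fold ratio. A group of 7 red points lies far to the left, under 1 CPM in the shoot.

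Most of the 116 genes were moderately enriched and clearly present in both tissues. The ratio was between 4 and 6 for 35 genes, between 6 and 8 for 25, between 8 and 16 for 29 and between 16 and 32 for 17. Only 10 genes exceeded 32, and 6 of these exceeded 1000. In the shoot, 24 genes were at 100 CPM or more, 57 between 30 and 100 CPM, 23 between 10 and 30 CPM, 5 between 1 and 10 CPM and 7 below 1 CPM. The lowest haustorial library was at least 2 times the highest shoot library for 115 of the genes, at least 4 times for 79 and at least 8 times for 37. The exception at 2 times was the gene at rank 44, whose haustorial libraries held 570, 548, 591 and 218 CPM and whose shoot libraries held 66.7, 165, 34.3 and 58.8 CPM. Here the fourth haustorial pool and the second shoot pool came within a factor of 1.32 of each other.

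The gene with the most haustorial reads was Cc023415. It held 35101, 47519, 48922 and 32621 CPM in haustorial libraries 1 to 4. In shoot libraries 1 to 4 it held 1858, 1720, 1153 and 1396 CPM. Haustorial libraries 2 and 3 stood above libraries 1 and 4, and the lowest of them was 17.6 times the highest shoot library. The means were 41041 ± 8372 CPM (SD, n = 4) and 1532 ± 318 CPM, a log2 fold change of 4.74 ± 0.24 (SE). This gene was the most abundant of all genes in the haustorial region and stood in place 14 in the shoot, so it was among the 20 genes with the most reads in each tissue.

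The genes at ranks 2 to 9 were likewise abundant in the shoot. The gene at rank 2 held 11196, 9801, 12283 and 10578 CPM in the haustorial libraries and 700.2, 933, 529.8 and 728 CPM in the shoot libraries. At rank 3 the levels were 6392, 8534, 7836 and 5525 CPM against 621, 648, 435 and 495 CPM. Their log2 fold changes were 3.92 ± 0.19 and 3.69 ± 0.19 (SE), and the library order differed between them, since the gene at rank 2 was lowest in haustorial library 2 and the gene at rank 3 was highest there. At rank 4 they were 4680, 4064, 5945 and 3715 CPM against 218, 414, 212 and 289 CPM. At rank 5 they were 3591, 4028, 4772 and 3578 CPM against 237, 239.8, 198 and 209 CPM. These genes were both highest in haustorial library 3 and lowest in library 4, with log2 fold changes of 4.02 ± 0.25 and 4.18 ± 0.15.

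The next genes had smaller ratios. At rank 6 the haustorial libraries held 3790, 4570, 3886 and 2589 CPM and the shoot libraries 632, 623, 483 and 513 CPM, with a fitted log2 change of 2.72 ± 0.18 (SE). At rank 7 the values were 2743, 3500, 3814 and 1654 CPM against 396, 419, 217 and 249.6 CPM, with a log2 change of 3.19 ± 0.32. In both genes haustorial library 4 was lowest, and shoot libraries 1 and 2 were above libraries 3 and 4. This order recurred at rank 8, with 2386, 2905, 2591 and 1850 CPM against 419, 425, 292 and 308 CPM. By contrast, the gene at rank 9 was even across the haustorial pools, at 1949, 1760, 1799 and 1791 CPM, but split the shoot pools into 260.3 and 271 CPM in libraries 1 and 2 and 122 and 146 CPM in libraries 3 and 4.

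Of the genes at ranks 10 to 20, 4 were close to absent from the shoot and the other 7 were at 65.8 to 199 CPM there on average. Haustorial means of these 11 genes ran from 785 to 1321 CPM. Among them, the gene at rank 17 had the most even shoot level of the genes with shoot counts, at 193, 197, 194 and 200.2 CPM. Rank 13 showed the opposite pattern, with 263, 162, 47.8 and 123 CPM in the shoot libraries and 1220, 1203, 1267 and 1104 CPM in the haustorial libraries. Its SE was 0.48 on the log2 scale, with a wide spread in the shoot and a narrow spread in the haustorial region.

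**Figure D2:**
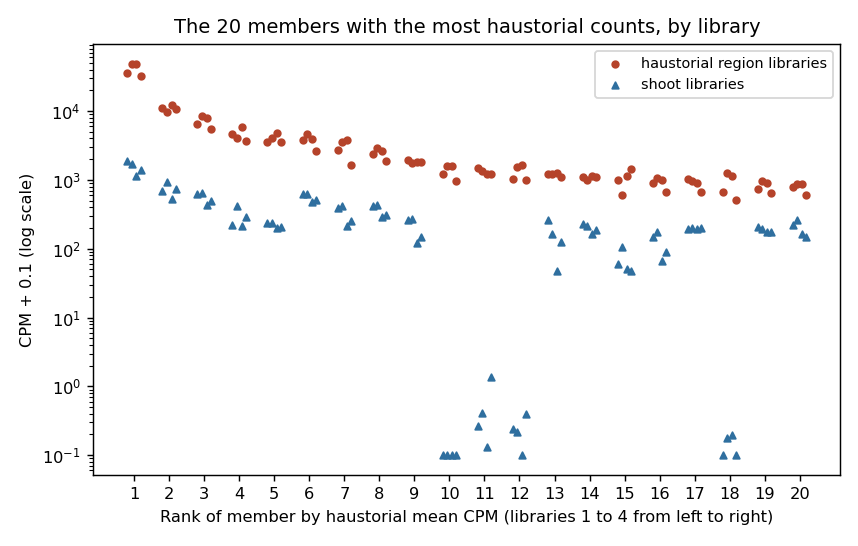
CPM with 0.1 added, on a log axis, of the 20 genes with the highest haustorial means in each of the 8 libraries. Red circles are haustorial and blue triangles shoot libraries, 1 to 4 from left to right within each gene. The genes at ranks 10, 11, 12 and 18 drop to near or at 0 CPM in the shoot, while the rest keep shoot levels of at least 47.8 CPM.

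A group of 7 genes was below 1 CPM in the shoot on average. They stood at ranks 10, 11, 12, 18, 61, 84 and 100. Together they held 5216, 6908, 6334 and 4304 CPM in haustorial libraries 1 to 4. In the shoot they summed to 54, 29, 29 and 50 counts in libraries 1 to 4, or 162 counts in all. The gene at rank 11 gave 31 of the 50 counts in shoot library 4, and without it the sums were 48, 21, 28 and 19 counts. In the haustorial region library 4 held the least of these genes.

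The gene with the largest ratio was Cc021807, at rank 10. It held 1204, 1565, 1567 and 949 CPM in the haustorial libraries and no count in any shoot library. With 3 counts put at the 4 shoot libraries together, its haustorial level was at least 51616-fold higher, a bound that covers counting error only. Leaving out any shoot library lowered the bound to between 35605 and 40952, because fewer shoot counts were then searched. Next in ratio was the gene at rank 18, with 656, 1248, 1139 and 506 CPM in haustorial libraries and 0, 2, 3 and 0 counts in shoot libraries. Its count ratio was 20862 with an exact 95% interval of 8939 to 64252, and it was 38542 without shoot library 3. This gene also showed a wide spread between haustorial pools, with libraries 2 and 3 well above libraries 1 and 4.

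The remaining genes of this group kept a few shoot counts. The exact intervals of these count ratios cover counting error only and not the spread between pools, which was larger for some genes. At rank 11 the haustorial libraries held 1474, 1349, 1229 and 1232 CPM and the shoot libraries 6, 8, 1 and 31 counts. Its count ratio was 3327, with an interval of 2494 to 4545, and was 8096, outside that interval, without shoot library 4. For the gene at rank 12 there were 5, 3, 0 and 7 shoot counts and a count ratio of 10334 (6266 to 18465). The 3 shoot counts of the gene at rank 61 were all in library 1, so its ratio of 14615 (5000.5 to 70871) turned into a lower bound of 10081 without that library. The genes at ranks 84 and 100 had 84 and 9 shoot counts and ratios of 347 (280.5 to 436) and 2697 (1420 to 5899). Each gene of this group had at most 84 shoot counts, so the size of the ratio is loosely set, most so where the counts are fewest. The haustorial mean levels of 211 to 1321 CPM have little counting error. They still differed between pools, with 506 to 1248 CPM at rank 18.

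Between these genes and the rest lay 5 genes with 1 to 10 CPM in the shoot, at ranks 33, 53, 88, 91 and 92. Of these, the gene at rank 33 was even between haustorial pools but not between shoot pools, with 639, 574, 569 and 558 CPM in the haustorial libraries and 8.21, 6.21, 9.17 and 12.4 CPM in the shoot libraries. The widest spread between haustorial pools of all 116 genes was seen at rank 53, at 432, 622, 449.6 and 179.5 CPM, where the shoot libraries held 7.88, 9.30, 2.99 and 4.44 CPM. The ratios of the genes at ranks 33 and 53 were close to each other, at 64.4 and 67.3. At ranks 88, 91 and 92 the ratios of the means were 28.8, 63.7 and 25.5. At rank 91 the highest value, 351 CPM, was in haustorial library 3 and the lowest, 133 CPM, in library 1. The count ratio of this gene, 72.9, was 107 without shoot library 2, which held 178 of its 378 shoot counts.

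The 116 genes took up 11.2%, 12.7%, 12.9% and 10.05% of all counts in haustorial libraries 1 to 4. In the shoot libraries they took up 1.21%, 1.27%, 0.913% and 1.02%. The means were 11.7% ± 1.3 (SD, n = 4) and 1.11% ± 0.17. The counting error of these shares is small beside the difference between pools, with 95% Wilson intervals of at most 0.0132 percentage points to either side. Such intervals treat reads as independent molecules.

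The haustorial share was concentrated in few genes. Cc023415 alone held 3.83% ± 0.69 (SD, n = 4) of haustorial and 0.163% ± 0.032 of shoot counts. Those at ranks 2 to 10 together held 3.63% ± 0.40 and 0.343% ± 0.063, and the other 106 genes held 4.26% ± 0.34 and 0.599% ± 0.076. Of the counts of the set itself, Cc023415 made up 32.5% ± 2.5 in haustorial libraries and 14.7% ± 1.1 in shoot libraries. Of the 10 genes with the highest haustorial means among all genes, 6 were in the set, as were 29 of the highest 100 and 98 of the highest 500. Of the highest in the shoot, the set held 0 of 10, 4 of 100 and 12 of 500.

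**Figure D3:**
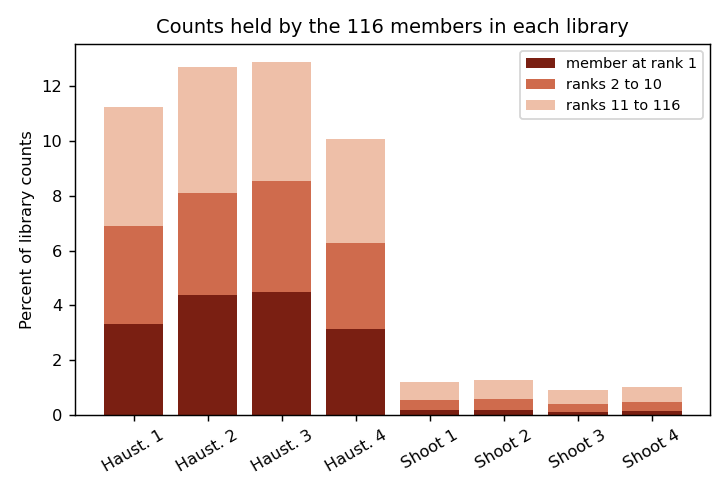
Percent of all counts of each library that fell on the 116 genes, stacked as Cc023415 (rank 1), ranks 2 to 10 and ranks 11 to 116. Haustorial bars reach 10.05% to 12.9% and shoot bars 0.913% to 1.27%, with the lowest haustorial bar in library 4.

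Within each tissue the genes of the set differed between pools in a shared way that the rule had not used directly. In the haustorial region, 84 of the 116 genes (72.4%) had their lowest value in library 4, against 26.2% of all genes tested and 38.1% of the other 1442 genes that averaged 100 CPM or more. Library 2 held the highest value for 62 genes (53.4%), against 26.8% and 26.4%. The order of library 2, then 3, then 1, then 4 was shown by 32 genes and the order 2, 1, 3, 4 by 25. These orders were found in 5.28% and 5.81% of all genes tested. The 4 haustorial libraries were single pools, so no test of a pool is possible, and genes are not independent replicates of it.

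The size of this difference was moderate. The CPM in haustorial library 4 over the mean of libraries 1 to 3 had a median of 0.782 over the 116 genes, against 0.975 over the other abundant genes and 0.999 over all genes tested. It was under 0.75 for 47 genes and above 1 for 17. For library 2 over the mean of the other three, the median was 1.19 against 1.00 for both other groups. The 870 enriched genes of lower mean level lay in between, with medians of 0.899 for library 4 and 1.06 for library 2. As a value beside this, 60 genes chosen by the mirrored rule, abundant and at least 4-fold higher in the shoot, held 0.204%, 0.258%, 0.261% and 0.234% of the counts of haustorial libraries 1 to 4. Library 4 was thus inside the range of the others for the shoot-enriched genes, and the part of this share in the result was not tested.

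The shoot pools were also split. Leaving out genes whose libraries tied, library 1 or 2 held the highest value for 96 of 115 genes (83.5%), against 57.4% of the other abundant genes and 51.5% of all genes tested. Library 3 or 4 held the lowest value for 97 of 113 genes (85.8%), against 63.9% and 53.7%. Both libraries 1 and 2 were above both libraries 3 and 4 for 69 genes (59.5%), against 36.1% of the other abundant genes and 23.9% of all genes tested. The ratio of the summed CPM in libraries 1 and 2 to that in libraries 3 and 4 had a median of 1.24 over the 114 genes with shoot counts in libraries 3 or 4. The median was 1.02 over the other abundant genes and 1.01 over all genes tested. The 870 enriched genes of lower mean level shared part of this split. Their median was 1.17 over the 817 genes with a finite ratio. Library 1 or 2 was highest for 66.7% of those without ties, and library 3 or 4 lowest for 68.7%. Both libraries 1 and 2 were above both libraries 3 and 4 for 35.5% of the 870. The 7 genes near 0 in the shoot summed to 1.49, 1.12, 0.953 and 2.08 CPM in libraries 1 to 4, but 31 of the 50 counts in library 4 were from the gene at rank 11. Without that gene the sums were 1.33, 0.810, 0.920 and 0.789 CPM, highest in library 1 and lowest in library 4. Of the 48 counts then left in library 1, 37 were from the gene at rank 84. In library 3 that gene gave 25 of 28 counts. The order of these sums thus rests largely on the gene at rank 84, and no order of the group is read from it.

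**Figure D4:**
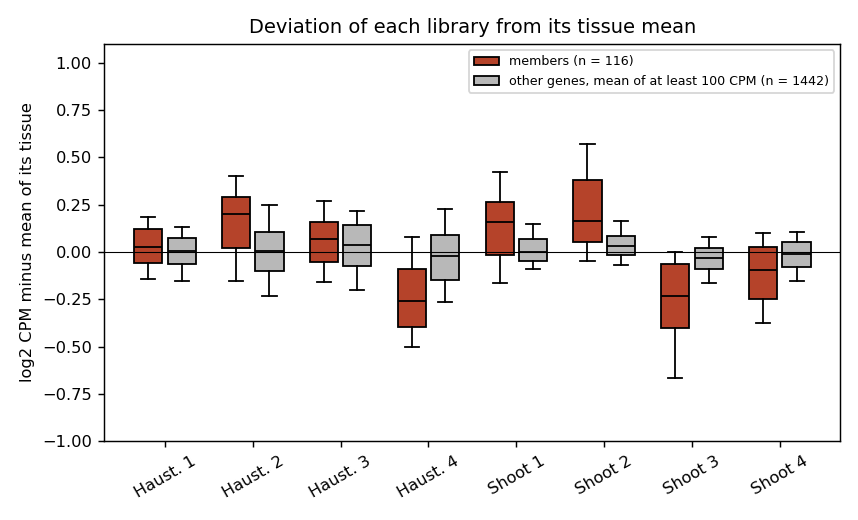
Log2 CPM (prior count 2) of each library minus the mean of its tissue. Red boxes show the 116 genes and grey boxes the other 1442 genes averaging 100 CPM or more, with the median, the quartiles and whiskers from the 10th to the 90th percentile. The red medians are at 0.20 in haustorial library 2, -0.26 in haustorial library 4, 0.16 in shoot libraries 1 and 2 and -0.23 in shoot library 3, while the grey medians stay between -0.03 and 0.04.

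The spread between pools was wide for genes of this level. The standard deviation of log2 CPM over the 4 haustorial libraries had a median of 0.25 over the 116 genes and 0.15 over the other abundant genes. Over the 4 shoot libraries the medians were 0.27 and 0.08. Taking other genes between the quartiles of the set's own levels gave 0.15 for 244 genes at like haustorial level and 0.08 for 7733 genes at like shoot level. Among all genes tested the haustorial spread exceeded the shoot spread for 68.4%, and among the 116 genes it did so for 50, or 43.1%. The 870 enriched genes of lower mean level shared this, with median spreads of 0.29 over haustorial and 0.38 over shoot libraries and a wider haustorial spread for 34.4%. Without haustorial library 4 the median haustorial spread was 0.18 for the set and 0.13 for the other abundant genes.

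Single genes differed in how far they followed this order. Most even across haustorial pools was the gene at rank 82, at 288, 283, 288 and 283 CPM, while its shoot libraries held 17.6, 24.4, 10.8 and 11.96 CPM. The gene at rank 57 departed from the order, with its lowest value, 213 CPM, in haustorial library 2 against 344, 573 and 431 CPM in libraries 1, 3 and 4.

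A group of 12 genes ran against the common haustorial order and had its highest value in library 4. In 9 of them library 2 was the lowest. At rank 15 the haustorial levels were 985, 605, 1148 and 1423 CPM, at rank 29 they were 686, 376, 668 and 728 CPM, and at rank 39 they were 509, 391, 449 and 715 CPM. The median ratio of library 4 to library 2 was 1.53 in these 12 genes and 0.637 in the 57 genes that were highest in library 2 and lowest in library 4. Their median ratio between tissues was 15.6, against 7.39 in those 57 genes. A ratio of at least 8 was reached by 10 of the 12, by 24 of the 57 and by 56 genes of the whole set. In the shoot, 8 of the 12 were highest in library 1 or 2, as were 51 of the 57. The 12 and the 57 genes were picked by the values shown, so their difference is given without a test.

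**Figure D5:**
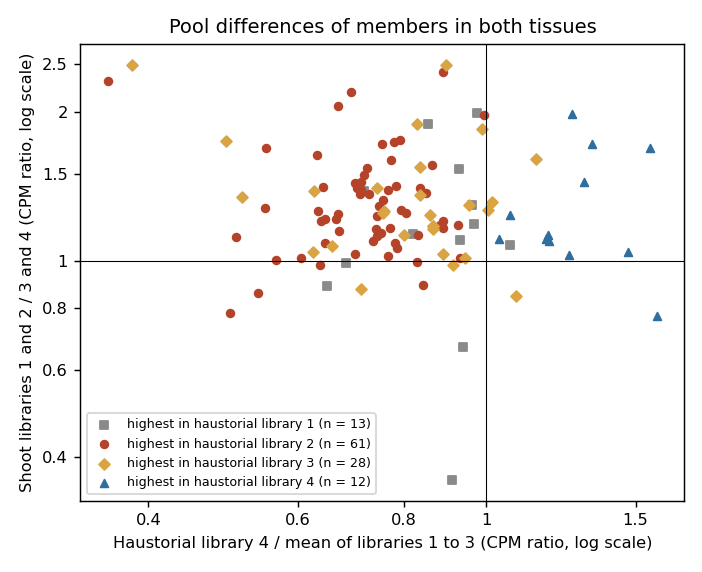
For 114 of the 116 genes, the CPM in haustorial library 4 over the mean of libraries 1 to 3 against the CPM in shoot libraries 1 and 2 over that in libraries 3 and 4, on log axes. Symbols show the haustorial library with the highest value, and lines mark a ratio of 1. Most points lie in the upper left part, low in haustorial library 4 and high in shoot libraries 1 and 2, and the 12 blue triangles lie to the right of the vertical line.

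To see the genes in a library that had no part in their choice, the rule was applied to 7 libraries and the left-out library was then read. The libraries of the other tissue, with which it was compared, had still chosen the genes, and its scaling used all 8 libraries. The counts are therefore a description and not an independent check. Leaving out haustorial libraries 1, 2, 3 and 4 chose 106, 98, 103 and 111 genes. In the left-out library all of them were above every shoot library, and 100, 95, 94 and 90 of them kept a ratio of at least 4 to the shoot mean. Over all 8 libraries, 28.6% of all genes tested had no overlap with the haustorial libraries above. That condition is stricter than the one for a single left-out library, so this share is not a like background. The share of all genes that met either condition in a single left-out library of either tissue was not counted. Of the chosen genes, 81.1% kept the ratio for library 4 and between 91.3% and 96.9% for libraries 1, 2 and 3. Leaving out shoot libraries 1, 2, 3 and 4 chose 130, 138, 121 and 120 genes, all of which were below every haustorial library in the left-out library. The ratio was kept by 114, 111, 119 and 116 of them, or 87.7%, 80.4%, 98.3% and 96.7%. The lower shares were those of haustorial library 4 and shoot libraries 1 and 2. The set was low in that haustorial library and high in those shoot libraries. Both readings use nearly the same CPM values, so the lower shares are not a separate result.

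An identifier within 2 of that of another gene of the set was found for 8 of the 116 genes. How many would have one in a set picked at random was not counted. The genes at ranks 17 and 43 had consecutive identifiers, with ratios of 4.55 and 26.8. In 3 more pairs the identifiers differed by 2, at ranks 37 and 41, 64 and 73, and 2 and 113. The gene between ranks 37 and 41 was higher in the haustorial region too, at 81.5 against 0.824 CPM, but under the level threshold. The gene between ranks 64 and 73 was equal in both tissues, at 6.33 and 6.26 CPM, and the gene between ranks 2 and 113 was lower in the haustorial region, at 24.8 against 54.4 CPM. Of the 116 genes, 20 (17.2%) had an identifier next to that of any gene with at least a 4-fold ratio and no overlap, against 4.68% of all genes tested. Whether the numbering follows genome order is not given in the sources used here.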

How the data were processed

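The authors deposited raw read counts per gene, 1 file per library, as whole numbers without scaling. The submitters' processing notes name STAR 2.5.2b, while counting tool, genome build, annotation and strand setting are not given in the sources used. Reads of near-identical gene copies or overlapping genes may thus have been split, which would change ratios of such genes. Genes were filtered with filterByExpr at its defaults (about 10 counts in 4 libraries, 15 in total), scaled by TMM factors and fitted in R 4.3.3 with edgeR 4.0.16 (robust quasi-likelihood, tissue as the only term, p-values adjusted over 32855 genes). The SE of a log2 fold change was taken from its F statistic. TMM-scaled library sizes underlie the CPM values. The scripts were tested on simulated counts. DESeq2 1.42.0, other scalings and left-out libraries were alternatives. At these depths 3 counts in a library are 0.0876 to 0.134 CPM.

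Samples were grouped by their titles, and no label says that same-numbered libraries share plants. Between libraries of the same tissue the chi-square of the counts was 4.91 to 25.6 per degree of freedom, above sampling noise, so each was counted as a separate sample, and whether a difference between pools is technical is not known. The members and the rules for describing them were chosen with earlier results of these data known. As stated by the rule for named genes, with no gene names at hand the identifiers of the gene with the highest haustorial mean and of the gene with the largest ratio are printed, and the 20 highest genes are described by rank. Genes at lower ranks were singled out after their values were seen. Marker lists of cell types could not be matched to identifiers and were left out.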

Additional observations from a re-analysis of the deposited data

How the results depend on the processing

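All 116 genes stayed called higher in the haustorial region in each of the 14 alternative fits (RLE, upper-quartile and library-total scaling, no count filter, DESeq2, the replicate block and each library left out), which follows from how they were chosen. In the main fit 31.2% of all genes tested were called so, and this share was not recorded for the alternatives. The size of the set was set by its thresholds: 212 genes at a mean of 50 CPM, 64 at 200 CPM, 310 at a ratio of 2 and 56 at a ratio of 8. It was 118 with RLE, 111 with upper-quartile scaling and 97 with library totals, which moved the median log2 fold change of all genes by -0.19. Leaving out each library gave 98 to 138 genes. The median log2 fold change of the 116 genes was 2.79 with library totals and 2.91 to 3.06 with a library left out. With the replicate block it was 2.99, and 116 genes were called. Same-numbered libraries had correlations of deviations across genes of -0.06 to 0.04, and 0 of 8 libraries matched their own number best. The 2 tissues need not vary alike, so these values do not tell whether same-numbered libraries share plants. Without Cc023415 the haustorial share of counts was 7.89%. The median spread with a library left out was 0.18 to 0.30 in the haustorial region and 0.22 to 0.28 in the shoot. Allowing identifiers to differ by up to 5 gave 8 genes with a neighbour in the set in place of 2. Chosen after the data were seen, the other scalings put haustorial library 4 lowest for 73 to 88 genes, library 2 highest for 60 to 61 and shoot library 1 or 2 highest for 94 to 96. Depth limits the shoot values of the 7 genes below 1 CPM.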
